A study of Mus musculus with 4 samples.

Results

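Cxcl9 and Spp1, 2 of the 30408 genes listed in the deposited matrices, were followed through every gated cell type of MB49 tumours and then cell by cell through the tumour macrophages. Both genes were counted in all 4 libraries. Macrophages were taken by a single rule: a cell of a CD45-positive library whose C1qa, C1qb and C1qc UMIs (unique molecular identifiers, 1 for each captured transcript) together made up at least 0.3% of its UMIs. These cells are called C1q-high here. The rule found 2505 of 5379 kept cells (46.6%) in the male library and 2731 of 4595 kept cells (59.4%) in the female library. Neither Cxcl9 nor Spp1 was used to choose them.

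MB49 is a mouse bladder carcinoma line, and the study asked how immune cells relate to the difference in tumour progression between the sexes. Live cells of MB49 tumours were stained for CD45, the protein tyrosine phosphatase that marks leukocytes, sorted, and read as single cells on the BD Rhapsody microwell system. The 4 groups were CD45-positive cells from male mice, CD45-positive cells from female mice, CD45-negative cells from male mice and CD45-negative cells from female mice, with 1 library each. All mice carried tumours of the same line; the labels state neither strain, age, time after implantation nor the number of mice pooled. With 1 library for each group, sex, mouse, tumour and library cannot be told apart, no difference between male and female has a replicate check, and no test between them was made. Intervals are 95% and cover counting error only.

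The 4 libraries held 19375 kept cells of 22115 barcodes, with median depths from 5980 to 10598 UMIs per cell. The sort was visible in Ptprc, which encodes CD45, in CPM (the UMIs of a gene for each 1000000 UMIs summed over the cells). It stood at 742 (male) and 648 (female) CPM in the CD45-positive libraries, against 1.79 (male) and 1.35 (female) in the CD45-negative ones. Among C1q-high cells, 91.7% (male) and 89.6% (female) had a UMI of Csf1r, the macrophage colony-stimulating factor receptor. Adgre1, which encodes F4/80, was detected in 77.4% of the male and 64.7% of the female C1q-high cells. Only 7 male and 8 female C1q-high cells were found in the CD45-negative libraries. Of the C1q-high cells, 449 male and 418 female ones also carried signs of another cell type, and no doublets were removed. Counted as such were a T, NK, neutrophil, type 1 or mature dendritic, B or mast cell gate, or at least 2 keratin UMIs. Other gates, such as those of monocytes and Cd209a dendritic cells, were not counted.

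CXCL9 is a chemokine that macrophages and dendritic cells make in response to interferon-gamma. Together with CXCL10 and CXCL11 it acts on CXCR3, the receptor of activated T cells and NK cells, and draws them into tissue. Spp1 encodes osteopontin, a secreted phosphoprotein of bone and inflamed tissue that binds CD44 and several integrins; tumour macrophages and many carcinoma cells make it. In human tumours the balance of CXCL9 and SPP1 in macrophages has been used as a measure of their polarity.

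Both genes lie on mouse chromosome 5 but far apart. In mm10 (GENCODE M21) Cxcl9 (ENSMUSG00000029417) spans chr5:92321347-92328079 on the minus strand. Cxcl10 (ENSMUSG00000034855), shown as its close neighbour, spans chr5:92346638-92348889 on the same strand, 18.6 kb away. Spp1 (ENSMUSG00000029304) spans chr5:104435118-104441050 on the plus strand, 12.1 Mb from Cxcl9. Their promoters are printed because Cxcl9 and Cxcl10 were both higher in male macrophages while Spp1 was lower. Each sequence is the 250 bases before the gene's start, from RefSeq (GRCm38.p6), 5′ to 3′ on the gene's own strand. The windows are chr5:92328080-92328329 (minus) for Cxcl9, chr5:92348890-92349139 (minus) for Cxcl10 and chr5:104434861-104435110 (plus) for Spp1. Capitals mark matches to 4 motifs searched on both strands: IRF (GAAA, any 2 bases, GAAA), kappaB (GGGA, any base, TT, any base, CC), AP-1 (TGANTCA) and RUNX (AACCACA).
Cxcl9: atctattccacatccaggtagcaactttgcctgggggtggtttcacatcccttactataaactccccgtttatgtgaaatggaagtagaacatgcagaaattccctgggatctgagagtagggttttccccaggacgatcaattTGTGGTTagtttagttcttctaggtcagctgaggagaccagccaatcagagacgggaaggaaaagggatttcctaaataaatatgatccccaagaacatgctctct
Cxcl10: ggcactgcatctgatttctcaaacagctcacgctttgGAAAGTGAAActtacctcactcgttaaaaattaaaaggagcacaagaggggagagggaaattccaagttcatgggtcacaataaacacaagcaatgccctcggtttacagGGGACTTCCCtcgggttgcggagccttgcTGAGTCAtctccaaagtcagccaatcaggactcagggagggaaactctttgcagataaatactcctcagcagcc
Spp1: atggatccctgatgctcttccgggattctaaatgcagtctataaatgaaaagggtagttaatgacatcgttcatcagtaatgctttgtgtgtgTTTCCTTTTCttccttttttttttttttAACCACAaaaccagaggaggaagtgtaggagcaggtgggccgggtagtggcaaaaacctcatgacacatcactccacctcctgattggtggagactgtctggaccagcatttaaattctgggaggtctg
The Cxcl9 window held 1 match, RUNX on the reverse strand, 106 to 100 bases before the start. The Cxcl10 window held an IRF match at 213 to 204 bases, a kappaB match at 103 to 94 bases and an AP-1 match at 74 to 68 bases before the start. The Spp1 window held an IRF match on the reverse strand at 157 to 148 bases and a RUNX match at 129 to 123 bases before the start. No 2 matches overlapped. Of 32851 mouse promoter windows of the same length, 2.98% held the IRF letters, 0.98% kappaB, 6.75% AP-1 and 4.4% RUNX. A match here is a description of the letters, not a bound site.

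Cxcl9 was at its highest level in C1q-high cells among the leukocytes of both sexes. Levels here and below are CPM of the summed UMIs of a cell type, so that the levels of a gene can be compared between cell types but not between genes. In C1q-high cells Cxcl9 stood at 1710 (1695 to 1726) in males and at 639 (630 to 648) in females. These cells held 92.7% of all Cxcl9 UMIs of the male CD45-positive library and 85.7% of those of the female one. The marker gates of the other cell types had taken in some keratin-bearing cells. Levels outside C1q-high cells are therefore given with those cells set apart, a change made after the data were seen. In C1q-high cells this change moved 3 male cells and 1 female cell.

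After C1q-high cells, the Cxcl9 level in the male library was highest in type 1 dendritic cells (482, 451 to 515), which cross-present antigen to CD8 T cells, and in C1q-low phagocytes (466, 429 to 506), cells with Csf1r but little C1q. These neighbours overlapped in their intervals. Type 2 dendritic cells followed at 285 (260 to 312). Mature dendritic cells (103) and neutrophils (102) were level with each other, and regulatory T cells (73.2), CD4 T cells (62.8), NK cells (54.8), CD8 T cells (54.7) and monocytes (44.4) closed the order with overlapping intervals. In the female library C1q-low phagocytes were at 473 (446 to 502), type 2 dendritic cells at 270 (237 to 307) and monocytes at 256 (225 to 290). Female type 1 dendritic cells were at 573 (478 to 683), an interval that includes the 639 of female C1q-high cells, but only 19 cells were found. A Cxcl9 UMI was found in 78.9% of these 19 cells, against 57.9% of female C1q-high cells. With every cell thinned to 1000 UMIs the shares were 32.3% and 25.4%. Female CD4 T cells stood at 450 and regulatory T cells at 208, with 37.1% and 47.5% of those UMIs in 1 cell each.

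CD8 T cells, which are not known as a source of CXCL9, give the background that free RNA and mixed wells leave. In them 13.8% of male and 16.7% of female cells had a Cxcl9 UMI, at median depths of 2300 and 3000 UMIs. In C1q-high cells the shares were 69.3% (male) and 57.9% (female), at median depths of 10755 and 9361 UMIs. With every cell thinned to 1000 UMIs, 42.1% of 2283 male and 25.4% of 2441 female C1q-high cells had a Cxcl9 UMI, against 6.11% of male and 4.55% of female CD8 T cells. For each 100 C1q UMIs, CD8 T cells held 11.9 (male) and 4.04 (female) Cxcl9 UMIs, and C1q-high cells 15.2 (male) and 6.33 (female). Type 1 dendritic cells held 90.5 (male) and 45.7 (female) for each 100 C1q UMIs, and type 2 dendritic cells 57.4 (male) and 25.2 (female). This ratio was higher in both kinds of dendritic cell than in C1q-high cells, and lower in CD8 T cells. Female CD4 T cells (35.3) and regulatory T cells (17.9) also lay above female C1q-high cells, with the large share of 1 cell given above. C1q is the measure by which C1q-high cells were chosen, and the dendritic and T cells lay below its threshold. A ratio above that of C1q-high cells is thus partly fixed by the rule, and no conclusion is drawn from it.

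Spp1 had another distribution, with its highest levels in the cells that carried keratins. In the CD45-negative libraries carcinoma cells, named from Krt7, Krt8, Krt18 and Krt19, held Spp1 at 1636 (1626 to 1647) over 5075 male cells and at 2885 (2868 to 2901) over 3643 female cells. A Spp1 UMI was found in 91.8% of male and 97.4% of female carcinoma cells. The keratin-bearing cells of the CD45-positive libraries, 101 male and 56 female, stood at 1346 (male) and 2375 (female). They were 1.88% of the male and 1.22% of the female CD45-positive cells but held 41.4% of the male and 15.6% of the female Spp1 UMIs there. C1q-high cells held 34.4% of the Spp1 UMIs of the male and 72.9% of those of the female CD45-positive library.

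Among leukocytes without keratins, the order of Spp1 levels differed between the libraries. In the male library neutrophils stood at 384 (341 to 430), C1q-low phagocytes at 212 (187 to 239), NK cells at 209 (177 to 246), CD4 T cells at 95.9 and C1q-high cells at 63.6. Male monocytes stood at 427, but they were 46 cells and 1 of them held 51.9% of the UMIs. In male C1q-low phagocytes 1 cell held 32.1% of the Spp1 UMIs, and in male CD4 T cells 1 cell held 38.2%. Type 1 dendritic cells (32.0), regulatory T cells (13.7), type 2 dendritic cells (7.94) and CD8 T cells (6.97) came last. In the female library neutrophils led at 604 (508 to 713), followed by C1q-high cells at 375 (368 to 383), C1q-low phagocytes at 277 (256 to 300), NK cells at 185 (145 to 233, 48.6% of it in 1 cell) and monocytes at 171 (146 to 199). Female CD4 T cells (98.0), CD8 T cells (75), regulatory T cells (52.1), type 2 dendritic cells (51.3) and mature dendritic cells (22.4) were lower. C1q-high cells were thus below neutrophils, NK cells and C1q-low phagocytes in the male library, and below only keratin-bearing cells and neutrophils among the female types of 40 or more cells. With keratin-bearing cells included, C1q-low phagocytes held 490 (male) and 731 (female).

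Because carcinoma cells held so much Spp1, keratins were read beside it. The 4 keratins together stood at 6.53 (male) and 10.9 (female) CPM in C1q-high cells with keratin-bearing cells set apart, against 2521 (male) and 3059 (female) in carcinoma cells. For each 100 keratin UMIs, C1q-high cells held 974 (male) and 3444 (female) Spp1 UMIs, and carcinoma cells 64.9 (male) and 94.3 (female). NK cells held 7450 (male) and 7400 (female), and neutrophils 3700 (male) and 13900 (female). CD8 T cells held 175 (male) and 1700 (female), from 7 and 34 Spp1 UMIs. Keratins stood at only 2.81 (male) and 2.50 (female) CPM in NK cells and at 10.4 and 4.35 in neutrophils. In CD8 T cells they stood at 3.98 and 4.41. The ratios of these 3 types thus rest on very few keratin UMIs and give no order. CD8 T cells had a Spp1 UMI in 2.20% of male and 17.5% of female cells, or 0.646% and 5.95% once thinned to 1000 UMIs. C1q-high cells had one in 20.6% of male and 50.1% of female cells, or 4.61% and 17.2% once thinned.

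**Figure D1:**
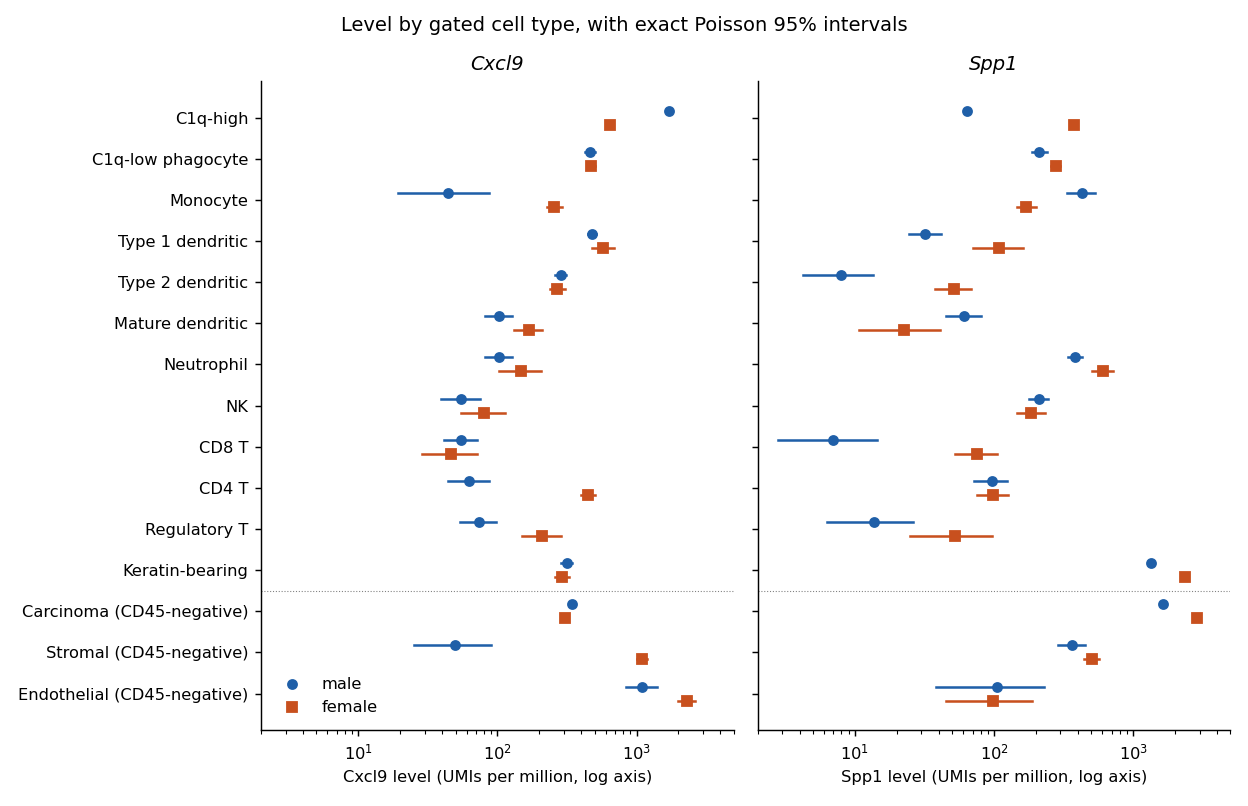
Level of Cxcl9 (left) and Spp1 (right) in CPM on log axes, for each gated cell type of the male (circles) and female (squares) library, with exact Poisson 95% intervals; the dotted line separates CD45-positive from CD45-negative libraries. Cxcl9 peaks in male C1q-high cells among leukocytes (1710), and Spp1 in keratin-bearing and carcinoma cells, up to 2885 in the female library.

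Outside the leukocytes, carcinoma cells also carried Cxcl9, at 343 (338 to 348) in males and 307 (302 to 313) in females, with a UMI in 42.4% of male and 43.0% of female cells. The few stromal cells held Cxcl9 at 49.9 (30 male cells) and 1097 (60 female cells), and Spp1 at 363 (male) and 502 (female). Endothelial cells, 11 male and 14 female, held Cxcl9 at 1094 and 2298, with 63.5% and 37.1% of those UMIs in 1 cell. The stromal and endothelial counts are too small for an order between the libraries. The stromal cells are a group rebuilt after the data were seen: the first fibroblast gate took in 1473 male and 754 female cells whose keratins stood at 2372 (male) and 2778 (female) CPM.

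Within C1q-high cells the 2 genes differed between the libraries in opposite directions. Cxcl9 had 45875 UMIs among male and 17948 among female cells, and its level was 2.68-fold higher in males (2.63 to 2.72). A Cxcl9-positive cell had a median of 8 (male) and 3 (female) Cxcl9 UMIs and at most 387 (male) and 256 (female). Spp1 had 1711 UMIs among male and 10540 among female cells, and its level was 5.88-fold lower in males (5.59 to 6.19). A Spp1-positive cell had a median of 1 (male) and 2 (female) Spp1 UMIs and at most 54 (male) and 439 (female). The background of such differences is narrow: of 1831 genes with at least 100 UMIs in these cells and 100 CPM in the higher library, 1.42% stood 2-fold or more on the male side and 2.18% on the female side. Cxcl9 ranked 9 from the male side and Spp1 ranked 3 from the female side, while the median log2 difference of all 1831 genes was -0.019. The ratio of Cxcl9 to Spp1 UMIs was 26.8 in male and 1.70 in female C1q-high cells. That ratio has a meaning only between libraries, since the 2 transcripts may be captured unequally; on the log2 scale the male ratio was 3.98 above the female one (3.88 to 4.08).

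Neither level rested on 1 cell. The cell with the most Cxcl9 held 0.844% of the male and 1.43% of the female Cxcl9 UMIs of C1q-high cells, and the 10% of cells with the most held 61.2% (male) and 70.7% (female). For Spp1 the top cell held 3.16% (male) and 4.17% (female), and the 10% of cells with the most held 84.5% (male) and 76.6% (female). Both genes were thus concentrated in a minority of macrophages. Without the 3 male cells and 1 female cell that carried keratins the log2 differences were 1.42 for Cxcl9 and -2.56 for Spp1.

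Beside the C1q threshold, male and female Cxcl9 levels were closer to each other than over all C1q-high cells, and Spp1 levels just inside it were not. Cells with C1q from 0.3% to 0.4% of UMIs, just inside, held Cxcl9 at 700 (105 male cells) and 508 (193 female cells), and cells from 0.2% to 0.3%, just outside, at 519 (145 male cells) and 532 (261 female cells). Spp1 stood at 139 (male) and 1028 (female, 33.1% of it in 1 cell) just inside, and at 157 (male) and 259 (female) just outside. In the male library 1 cell held 30.1% of the Spp1 UMIs just inside and 38.9% of those just outside. For Cxcl9 just outside, 1 cell held 37.3% of the male and 17.9% of the female UMIs.

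Other cell types did not repeat the macrophage difference in Cxcl9 at the same size. The male over female ratio was 0.984 (0.888 to 1.09) in C1q-low phagocytes, 0.84 (0.697 to 1.02) in type 1 dendritic cells, 1.06 (0.901 to 1.24) in type 2 dendritic cells, 1.12 (1.09 to 1.14) in carcinoma cells and 1.18 (0.703 to 2.06) in CD8 T cells. Each of these intervals lies below the interval of C1q-high cells, which starts at 2.63. CD4 T cells, regulatory T cells and monocytes held less Cxcl9 in the male library, at ratios of 0.14 (0.0958 to 0.198), 0.351 (0.226 to 0.548) and 0.173 (0.074 to 0.347), where 1 female cell held 37.1%, 47.5% and 24.5% of the female UMIs. Spp1 was lower in the male library in most types: 1.31-fold (1.13 to 1.52) in C1q-low phagocytes, 1.57-fold (1.28 to 1.93) in neutrophils, 1.76-fold (1.75 to 1.78) in carcinoma cells and 6.46-fold (3.42 to 13.1) in type 2 dendritic cells. CD8 T cells, with 7 male and 34 female UMIs, were 10.8-fold lower (4.70 to 28.8), and T cells that passed neither a CD4, CD8 nor regulatory gate 3.79-fold lower (2.70 to 5.40). In these ungrouped T cells 1 cell held 25.5% of the male and 34.6% of the female UMIs. NK cells went the other way within counting error, at a male over female ratio of 1.13 (0.849 to 1.51), but monocytes stood at 2.50 (1.88 to 3.30) and mature dendritic cells at 2.72 (1.36 to 6.01), where 1 male cell held 51.9% and 85.7% of the male UMIs. Among NK cells 1 female cell held 48.6% of the female UMIs, and among C1q-low phagocytes 1 male cell held 32.1% of the male ones. C1q in CD8 T cells, a sign of free macrophage RNA, stood at 461 (male) and 1148 (female) CPM, and its part in the differences of low-level types was not tested.

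Whether a macrophage that carries Cxcl9 also carries Spp1 depended on how deeply the cells were read. At full depth 368 male C1q-high cells had both genes, 1369 only Cxcl9, 148 only Spp1 and 620 neither. Among female cells 932 had both, 650 only Cxcl9, 437 only Spp1 and 712 neither. Spp1 was thus found in 21.2% (19.3 to 23.2) of male Cxcl9-positive and 19.3% (16.5 to 22.2) of male Cxcl9-negative cells, a ratio of 1.1. In the female library it was found in 58.9% (56.4 to 61.4) of Cxcl9-positive and 38.0% (35.2 to 40.9) of Cxcl9-negative cells, a ratio of 1.55. Deep cells have more chance to show either gene, so cells were also compared at equal depth.

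At equal depth the ratio lay below 1, but the intervals of the 2 shares overlapped in both libraries at 1000 and 2000 UMIs. With each cell thinned to 1000 UMIs it was 0.638 in male and 0.804 in female cells. At 2000 UMIs, Spp1 was expected in 6.29% of male Cxcl9-positive and 9.49% of male Cxcl9-negative cells, a ratio of 0.662. The female shares at 2000 UMIs were 23.6% (20.7 to 26.7) of Cxcl9-positive and 28.1% (25.8 to 30.4) of Cxcl9-negative cells, a ratio of 0.842. At 5000 UMIs, a depth added after the data were seen, the ratios were 0.711 (male) and 0.966 (female). There the male intervals lay apart, at 10.7 to 14.5 and 14.8 to 20.5, and the female ones overlapped. Split into 4 equal groups by depth and read without thinning, male cells gave ratios of 1.02, 0.843, 0.751 and 0.715 with rising depth, the last from 31.5% (27.6 to 35.6) of Cxcl9-positive and 44.0% (33.2 to 55.3) of Cxcl9-negative cells, whose intervals overlap. The 4 female groups gave 1.05, 1.11, 1.02 and 1.08, so that among female cells the ratio lay below 1 with thinning but not within depth groups. At full depth 14.7% of male and 34.1% of female C1q-high cells had a UMI of each gene, and thinned to 1000 UMIs 1.46% and 3.69% did. Free RNA can add to these shares: a Spp1 UMI was also found in 2.20% of male and 17.5% of female CD8 T cells, and its part in co-detection was not tested.

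**Figure D2:**
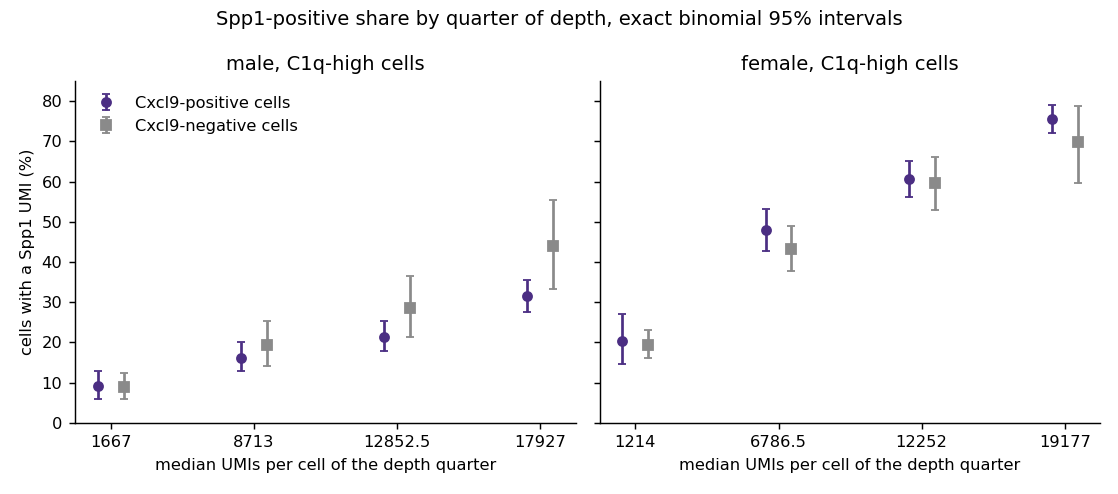
Share of C1q-high cells with a Spp1 UMI (y axis, %) among Cxcl9-positive (circles) and Cxcl9-negative (squares) cells, in 4 equal groups by depth labelled by their median UMIs per cell, for the male (left) and female (right) library, with exact binomial 95% intervals. The male shares stand at 31.5% and 44.0% in the deepest group, and the intervals of the 2 classes overlap in every depth group of both libraries.

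In male cells the share with Spp1 was lower where more Cxcl9 was counted, and the female bins could not be told apart. In male cells drawn to 2000 UMIs, the share with Spp1 was 8.98% (7.33 to 10.9) at 0 Cxcl9 UMIs, 8.36% at 1, 5.71% at 2 to 4, 5.17% at 5 to 9 and 2.93% (1.19 to 5.94) at 10 or more. In female cells it was 27.2%, 29.1%, 22.9%, 21.6% and 20% over the same bins. Their intervals all overlapped, with 24.9 to 29.5 at 0 Cxcl9 UMIs and 11.1 to 31.8 at 10 or more. Read the other way, the share with Cxcl9 was 52.0% at 0 Spp1 UMIs, 44.4% at 1 and 35.0% at 2 to 4 in male cells, and 35.5%, 38.4% and 30.6% in female cells. Of 54 female cells with 5 to 9 Spp1 UMIs, 11.1% had Cxcl9 (4.19 to 22.6), and of 25 with 10 or more, 28.0% did (12.1 to 49.4). Over cells the Pearson correlation of log(UMIs + 1) was -0.083 (2166 male cells) and -0.062 (2291 female cells). In counts this sparse such weak correlations are no finding.

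Genes that go with each member were read from cells with 1 of the 2 genes at 2000 drawn UMIs. The male library gave 1045 Cxcl9-only and 95 Spp1-only cells, with 63 cells of both and 963 of neither. The female library gave 598 Cxcl9-only and 406 Spp1-only cells, with 200 of both and 1087 of neither. Median depths of Cxcl9-only and Spp1-only cells were 12644 and 10506 UMIs (male) and 12574 and 10928.5 UMIs (female). At full depth, as the choice of classes fixes, Cxcl9 stood at 3079 in male Cxcl9-only and 143 in male Spp1-only cells, and at 1615 and 98.5 in the female classes. Spp1 stood at 19.9 and 617 (male) and at 76.8 and 1346 (female).

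Signs of other cells were read in both classes. Cxcl9-only and Spp1-only cells held keratins at 7.56 and 2.84 (male) and at 12.1 and 11.3 (female) CPM. T cell markers stood at 63.3 and 53.0 (male) and at 71.5 and 83.3 (female), and neutrophil markers at 136 and 169 (male) and at 109 and 87.9 (female). Of the T cell list 1 of 5 measured markers was at least 2-fold higher in male Cxcl9-only cells, and none of 5 in female ones, with median log2 differences of 0.97 (male) and -0.23 (female). Without each gene's top cell 3 of the 5 T cell markers (median 1.17) and 2 of 6 dendritic cell markers (median 0.75) were past 2-fold in male Cxcl9-only cells. Here and below, taking 1 cell from each class lowers levels more in the 95 male Spp1-only cells than in the 1045 Cxcl9-only cells. Male ratios thus tend to shift toward the Cxcl9-only side when top cells are left out. With all cells counted, none of the 4 neutrophil markers, 1 of 6 dendritic cell markers in each library and none of the measured fibroblast markers was past 2-fold. Of 2 measured carcinoma markers, 1 was higher in male Cxcl9-only cells. Cells with signs of another cell type, by the gates and keratins counted for all C1q-high cells, made up 20.4% of Cxcl9-only and 14.7% of Spp1-only cells (male). In the female library they made up 19.4% and 14.5%. The part of mixed wells in the class differences was not tested.

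Of 1687 genes with at least 100 UMIs in the 2 classes and 100 CPM in the higher one in each library, 0.178% (3 genes) were at least 2-fold higher in Cxcl9-only cells in both libraries, and 1.07% (18 genes) at least 2-fold lower. None was past 2-fold in opposite directions. The 3 were Dnase1l3, Serpina3g and Gbp2. Dnase1l3, a secreted DNase, stood at 895 in Cxcl9-only and 274 in Spp1-only cells of the male library, 3.27-fold higher (2.91 to 3.69), and at 553 and 158 in the female library, 3.49-fold higher (3.23 to 3.78). Serpina3g, a serine protease inhibitor, stood at 331 and 84.3 (male, 3.92-fold, 3.18 to 4.89) and at 282 and 97.7 (female, 2.88-fold, 2.61 to 3.19). Gbp2, a guanylate-binding protein induced by interferon-gamma, stood at 478 and 139 (male, 3.43-fold, 2.92 to 4.07) and at 493 and 195 (female, 2.53-fold, 2.36 to 2.72).

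The other 7 genes nearest to the Cxcl9-only side were past 2-fold in 1 library at most. Gbp7, of the same family as Gbp2, was 2.57-fold (male) and 1.74-fold (female) higher in Cxcl9-only cells. Slamf8, a receptor of the SLAM family on macrophages, was 1.90-fold and 2.25-fold higher. Klra2, a killer lectin-like receptor, was 2.10-fold and 1.76-fold higher, and Top2a, a topoisomerase of dividing cells, 2.07-fold and 1.86-fold. The neighbouring genes Tmem176a (1.76-fold and 2.09-fold) and Tmem176b (1.73-fold and 2.0-fold) were alike. Fads1, a fatty acid desaturase, was 1.78-fold (male) and 1.76-fold (female) higher.

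On the Spp1-only side the 10 named genes held matrix proteases, secreted factors and lysosomal genes. Mmp12, macrophage elastase, stood at 676 in Cxcl9-only and 3114 in Spp1-only cells of the male library, 4.61-fold lower in Cxcl9-only cells (4.43 to 4.8), and at 1591 and 5307 in the female library, 3.34-fold lower (3.26 to 3.41). Mmp13, a collagenase, stood at 1104 and 3106 (male, 2.81-fold lower) and at 2604 and 6228 (female, 2.39-fold lower). Mmp9, a gelatinase, was 9.91-fold lower in male and 3.84-fold lower in female Cxcl9-only cells. Ccl6, a chemokine of the CC family, was 2.86-fold and 2.42-fold lower, and Csf1, the growth factor of macrophages, 3.54-fold and 2.55-fold lower.

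Gpnmb, a glycoprotein of lipid-laden macrophages, was 8.46-fold lower in male and 4.22-fold lower in female Cxcl9-only cells. Chil3, a chitinase-like protein of alternative activation, was 22.0-fold lower (male) and 3.54-fold lower (female). The share of cells with a Chil3 UMI differed little, at 4.31% of Cxcl9-only and 6.32% of Spp1-only cells (male) and at 71.7% and 70.0% (female). In the 95 male Spp1-only cells 1 cell held 54.3% of the Gpnmb, 74.2% of the Chil3 and 38.9% of the Mmp9 UMIs. Without each gene's top cell in each class the male folds were 4.50 for Gpnmb, 6.99 for Chil3 and 7.67 for Mmp9. Mfge8, a bridge that lets phagocytes bind dying cells, was 3.74-fold (male) and 3.11-fold (female) lower in Cxcl9-only cells. Rsad2, an antiviral gene induced by interferons, was 2.98-fold and 3.19-fold lower, and Atp6v0d2, a proton pump subunit of osteoclasts and lysosomes, 3.58-fold and 2.42-fold lower. The other 8 genes past 2-fold on this side, read off after their values were seen, were Ccl4, Tnfrsf9, Ctsl, Il7r, Inhba, Anxa1, Cd36 and Ccl17.

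**Figure D3:**
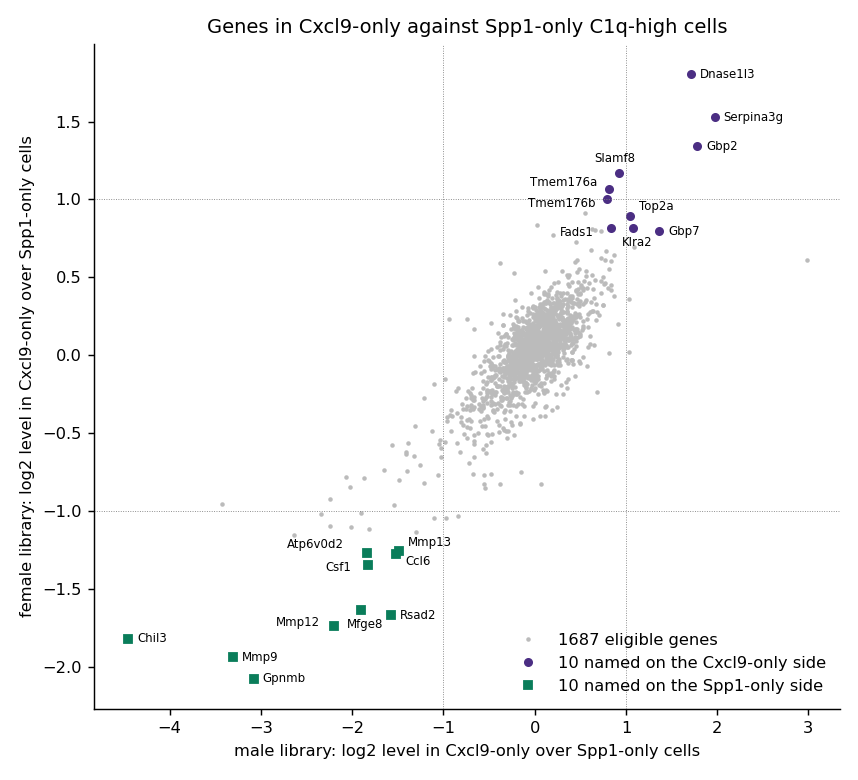
Each of 1687 genes by its log2 level in Cxcl9-only over Spp1-only C1q-high cells in the male (x axis) and female (y axis) library; dotted lines mark 2-fold, circles the 10 genes named on the Cxcl9-only side and squares the 10 on the Spp1-only side. Only Dnase1l3, Serpina3g and Gbp2 lie past 2-fold in both libraries at the upper right, and 18 genes do at the lower left.

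Gene lists were read by how many measured members, those with at least 20 UMIs in the 2 classes, were past 2-fold. Over all 1687 genes the median log2 difference was 0.018 (male) and 0.060 (female); in males 3.14% of genes were past 2-fold, 0.593% on the Cxcl9-only and 2.55% on the Spp1-only side, and in females 1.54%, with 0.356% and 1.19%. The lists had been chosen with earlier results of these data known, and several had members among the genes above.

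The interferon-gamma target and MHC class II lists had medians above 0 in both libraries, with few members past 2-fold. Of 15 measured interferon-gamma targets, 5 were at least 2-fold higher and 1 lower in male Cxcl9-only cells (median log2 0.61), and 1 was higher in female ones (median 0.54). Iigp1, an interferon-induced GTPase, stood at 187 in Cxcl9-only and 23.7 in Spp1-only cells (male, 7.88-fold) and at 104 and 67.8 (female, 1.53-fold). Psmb8, an immunoproteasome subunit, was 1.4-fold and 1.25-fold higher. Nos2, inducible nitric oxide synthase, went against its list, at 36.9 in Cxcl9-only and 154 in Spp1-only cells (male, 4.19-fold lower) and at 132 and 227 (female, 1.72-fold lower). Among genes of interferon-gamma signalling, Irf8, a transcription factor of myeloid cells, was 1.33-fold (male) and 1.24-fold (female) higher, and Jak1, a kinase of the receptor, 1.20-fold and 1.09-fold lower.

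Of the other CXCR3 ligands, Cxcl10 was past 2-fold in the male library only. It stood at 273 in Cxcl9-only and 113 in Spp1-only cells of the male library, 2.42-fold higher (2.02 to 2.94), and at 92.5 and 68.9 in the female library, 1.34-fold higher (1.18 to 1.54). Cxcl11 was near the limit of detection, at 3.49 and 0.947 (male) and at 2.08 and 0.835 (female), and its intervals include equal levels. Cxcr3 itself was at 4.89 and 3.79 (male) and at 3.25 and 2.09 (female). None of the 6 MHC class II genes was past 2-fold, with medians of 0.38 (male) and 0.30 (female). Cd74, the invariant chain, was 1.29-fold and 1.17-fold higher and H2-Ab1, a beta chain, was 1.28-fold and 1.26-fold higher. H2-DMb1, which helps load peptides, was 1.70-fold (male) and 1.38-fold (female) higher in Cxcl9-only cells. Of 7 proliferation genes 2 were past 2-fold among male cells and none among female cells, with medians of 0.62 and 0.66. Pclaf was 1.53-fold and 1.60-fold higher, Ube2c 1.18-fold and 1.49-fold, and Ccnb1 4.98-fold and 1.02-fold. The male Ccnb1 ratio rests on few UMIs: without each gene's top cell Ccnb1 stood at 22.7 in Cxcl9-only and 2.88 in Spp1-only cells. Of the genes that stimulate T cells, 1 of 8 was higher in males and none of 7 in females; Ccl5 was 1.01-fold (male) and 1.79-fold (female) higher, and Cd86, a costimulator, 1.08-fold and 1.23-fold. Il18 stood at 38.7 and 28.4 (male) and at 14.6 and 10.4 (female), and Tnfsf9 at 15.6 and 20.8 (male) and at 15.2 and 20.9 (female).

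On the Spp1 side the matrix list stood out by count. Of its 12 members 9 were at least 2-fold lower in male Cxcl9-only cells (median log2 -1.66) and 5 in female ones (median -0.88), and none was higher; all 5 were lower in both libraries. Mmp8, neutrophil collagenase, stood at 5.56 in Cxcl9-only and 38.8 in Spp1-only cells (male, 6.98-fold lower) and at 34.5 and 257 (female, 7.45-fold lower). Thbs1, thrombospondin, was only 1.27-fold and 1.21-fold lower, and Tgfbi 1.02-fold lower in male and 1.14-fold higher in female Cxcl9-only cells. Of the 7 osteoclast-like genes 4 (male) and 3 (female) were lower, but Nfatc1 was 1.16-fold and 1.25-fold higher and Ocstamp 1.14-fold and 1.03-fold lower. Of the 13 lipid-handling genes 5 were lower in each library, 4 of them in both (medians -0.66 and -0.70); without each gene's top cell 3 (male) and 5 (female) were. Ctsb, cathepsin B, was 1.09-fold and 1.31-fold lower, and Apoe 1.24-fold higher in male and 1.19-fold lower in female Cxcl9-only cells.

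Hypoxia and glycolysis genes were lower too, 6 of 15 in males and 2 in females (medians -0.96 and -0.51), or 4 and 2 without each gene's top cell. Adm, adrenomedullin, a target of hypoxia-inducible factor, stood at 3.26 and 11.4 (male, 3.48-fold lower) and at 9.76 and 48.6 (female, 4.98-fold lower). Aldoa was 1.73-fold and 1.24-fold lower, Ldha 1.48-fold and 1.16-fold lower, and Hk2 1.05-fold higher in male and 1.05-fold lower in female Cxcl9-only cells. Of 9 alternative activation genes 3 (male) and 1 (female) were lower, with medians of -0.77 and -0.15; Ccl24 was 1.71-fold and 1.42-fold lower, Mgl2 1.21-fold and 1.06-fold lower, and Cd163 1.65-fold and 1.06-fold higher. Without each gene's top cell 2 members were higher and 2 lower in male Cxcl9-only cells (median -0.31), and Retnla, chosen after its values were seen, turned in males from 1.91-fold lower to 2.19-fold higher. Such male shifts go the way that the unequal class sizes favour.

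The type I interferon list lay on the Spp1 side, opposite to the interferon-gamma targets. Of its 10 members 6 were at least 2-fold lower in male and 5 in female Cxcl9-only cells, 4 of them in both, and the medians were -1.39 and -0.96. Ifit1, an antiviral RNA-binding protein, stood at 25.5 in Cxcl9-only and 81.4 in Spp1-only cells (male, 3.19-fold lower) and at 23.8 and 117 (female, 4.92-fold lower). Isg15, a ubiquitin-like protein, was 1.59-fold and 1.22-fold lower, and Irf7 1.59-fold lower in male and 1.12-fold higher in female Cxcl9-only cells. Rsad2, the other named member, had 16.6% (male) and 9.45% (female) of its Spp1-only UMIs in 1 cell. Without each gene's top cell the list medians were -1.18 and -0.98.

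The remaining lists had few members past 2-fold. Inflammatory genes counted 3 of 11 lower in male and 2 lower in female Cxcl9-only cells (medians -0.18 and -0.24); Ccl4 was 3.74-fold and 2.02-fold lower and Cxcl2 1.24-fold and 1.4-fold lower, while Il1b was 1.13-fold and 1.20-fold higher and Il1a 1.49-fold higher (male) and 1.05-fold lower (female). Without each gene's top cell 2 (male) and 1 (female) were lower and the male median turned to 0.26. Of 6 monocyte genes 1 was lower in the female library, F13a1, at 1.79-fold (male) and 2.05-fold (female). Ccr2 was 1.03-fold lower (male) and 1.32-fold higher (female), and Ly6c2 1.70-fold higher and 1.06-fold lower. Of the resident-like genes 1 of 9 was higher in the male library; Cx3cr1, the fractalkine receptor, was 2.08-fold (male) and 1.92-fold (female) higher in Cxcl9-only cells, C1qb 1.15-fold and 1.07-fold, and C1qc 1.31-fold and 1.1-fold. Lyve1 had no UMI in male Spp1-only cells and was 1.5-fold lower in female Cxcl9-only cells. The male median of this list, -0.08, turned to 0.21 without the top cells. This turn and that of the inflammatory median went the way that the small male Spp1-only class favours. Of 9 osteopontin receptor genes 1 was higher and 1 lower in male cells and none in female ones; Cd44 was 1.4-fold and 1.12-fold lower, Itgb1 1.07-fold and 1.05-fold lower, and Itgb3 2.07-fold and 1.75-fold lower in Cxcl9-only cells, while Itga8 was barely detected, at 7.94 and 3.79 (male) and at 1.95 and 1.25 (female).

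**Figure D4:**
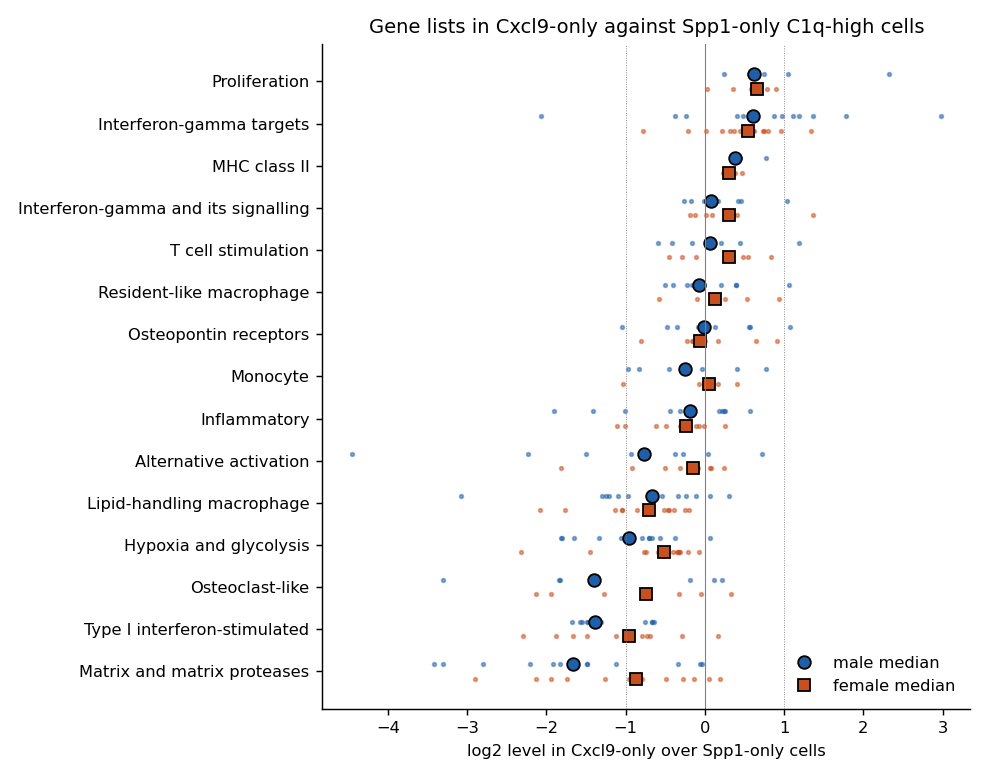
Log2 level in Cxcl9-only over Spp1-only C1q-high cells (x axis) of the measured members of 15 gene lists (small points) and their medians (large circles male, large squares female); dotted lines mark 2-fold. Proliferation, interferon-gamma target and MHC class II medians lie on the Cxcl9-only side in both libraries, and matrix, type I interferon, osteoclast-like and hypoxia medians on the Spp1-only side.

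Among marker-defined groups of C1q-high cells, the Arg1 group was read first, since Arg1 differed much between the libraries. Arg1 encodes arginase 1, an enzyme of alternative activation, and cells with Arg1 at 0.1% of UMIs or more were 433 (17.3%) of the male and 1980 (72.5%) of the female C1q-high cells. In them Cxcl9 stood at 1034 (male), against 1848 in male cells without, and at 503 (female), against 1088 in female cells without. Spp1 stood at 172 (male), against 41.9 without, 4.10-fold higher (3.72 to 4.51), and at 449 (female), against 133 without, 3.38-fold higher (3.16 to 3.63). Between the sexes Cxcl9 was 2.06-fold higher in male cells within the Arg1 group and 1.70-fold higher outside it, against 2.68-fold over all C1q-high cells. Spp1 was 2.62-fold lower in male cells within the group and 3.17-fold lower outside it, against 5.88-fold over all. The differences between the libraries were thus smaller within each Arg1 group than over all C1q-high cells, and remained in the same direction.

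Spp1 was also higher in cells with matrix proteases and with Chil3. Cells with Mmp12 and Mmp13 together at 0.1% of UMIs or more numbered 1158 (male) and 2002 (female), and held Spp1 at 91.3, against 38.0 in male cells without, and at 448, against 123 in female cells without. Cxcl9 was slightly lower in them, at 1621 against 1795 (male) and 615 against 721 (female). The Chil3 group held 20 male and 256 female cells. Spp1 stood at 215 against 63.0 (male) and 765 against 341 (female), and Cxcl9 at 320 against 1718 (male) and 542 against 647 (female). The male Chil3 group had only 31 Spp1 UMIs, 45.2% of them in 1 cell, and 46 Cxcl9 UMIs, 32.6% of them in 1 cell. Cells with Retnla or Mgl2, markers of alternative activation, numbered 1792 (male) and 2073 (female). Their Spp1 was 65.4 against 58.6 (male) and 342 against 546 (female), and their Cxcl9 1698 against 1750 (male) and 652 against 570 (female).

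The Spp1 level was lower in the resident-like and cycling groups, and also in the monocyte-gene and MHC class II groups. In cells with Ly6c2 or Ccr2 it stood at 35.2 against 65.8 (male) and 212 against 392 (female). In MHC class II-bearing cells it stood at 61.8 against 87.8 (male) and 351 against 603 (female). Among the cells without, 1 cell held 25.1% (male) and 27.0% (female) of the Spp1 UMIs. The share of cells with a Spp1 UMI was not lower in MHC class II-bearing cells, at 20.6% against 20.3% (male) and 51.0% against 43.6% (female). Cx3cr1 cells, 153 male and 26 female, held Spp1 at 24.2 against 66.1 (male) and 50.7 against 377 (female), and Cxcl9 at 1636 against 1715 (male) and 216 against 641 (female). Cycling cells, 353 male and 169 female, held Spp1 at 40.2 against 68.9 (male) and 148 against 398 (female). Their Cxcl9 was 1280 against 1804 (male) and 720 against 631 (female). Cells with the monocyte genes Ly6c2 or Ccr2, 212 male and 349 female, held Cxcl9 at 914 against 1767 (male) and 787 against 624 (female), so that male and female cells of this group differed by only 1.16-fold (1.09 to 1.24). MHC class II-bearing cells, 2278 male and 2417 female, held Cxcl9 at 1810, against 502 in male cells without (3.61-fold higher, 3.39 to 3.84), and at 679, against 259 in female cells without (2.62-fold higher, 2.43 to 2.83).

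**Figure D5:**
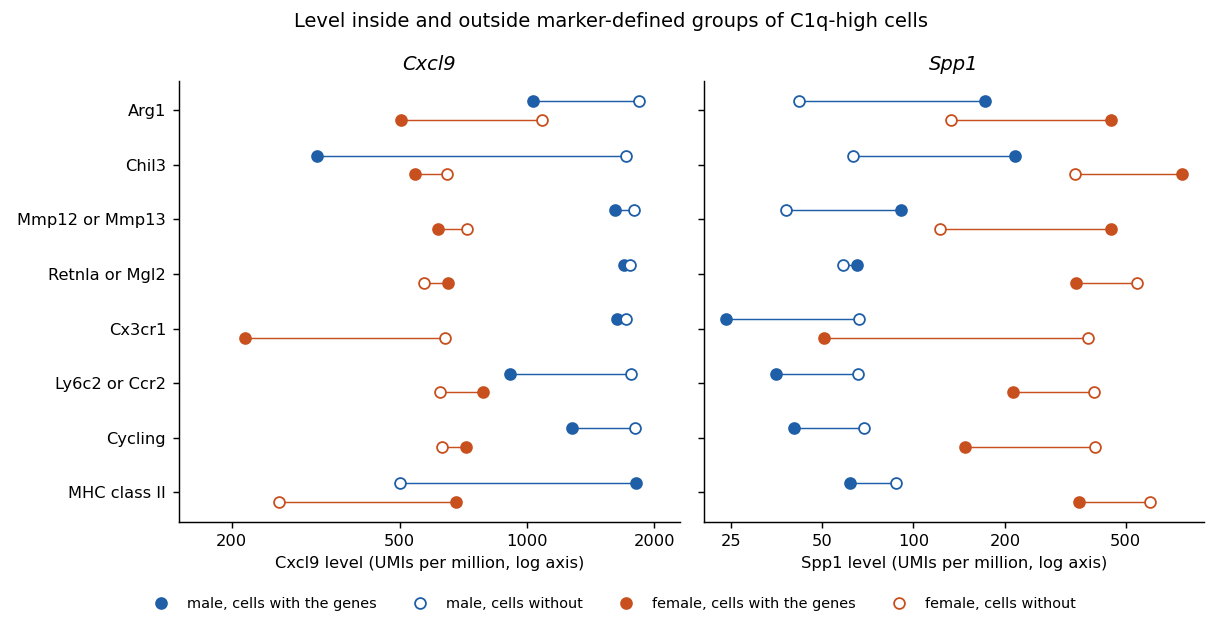
Level of Cxcl9 (left) and Spp1 (right) in CPM on log axes, in C1q-high cells with (filled) and without (open) the genes of each row, for the male (upper of each pair) and female (lower) library. Arg1 cells lie below the cells without Arg1 for Cxcl9 and above them for Spp1 in both libraries, and every female Spp1 point lies right of its male counterpart.

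Cxcr3 and Ifng were highest in lymphocytes. Cxcr3 was at 62.7 (male) and 94.9 (female) in CD8 T cells and at 85.4 (male) and 62.5 (female) in regulatory T cells, against 5.00 (male) and 2.74 (female) in C1q-high cells. Ifng, which encodes interferon-gamma, was at 190 (male) and 138 (female) in CD4 T cells, 54.7 (male) and 130 (female) in CD8 T cells and 37.9 (male) and 163 (female) in NK cells, where 1 female cell held 79.7% of the CD8 T and 73.8% of the NK cell UMIs. No UMI of either gene was counted in carcinoma cells. Cxcl10 in C1q-high cells was at 182 (male) and 62.3 (female), so that it shared the direction of Cxcl9 between the libraries, at a male over female ratio of 2.94. In carcinoma cells Cxcl10 was at 142 (male) and 124 (female).

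Of the osteopontin receptors, Cd44 was highest in neutrophils, at 2449 (male) and 2560 (female), and stood at 459 (male) and 618 (female) in C1q-high cells. Itga9, an integrin chain that binds osteopontin, was at 210 (male) and 231 (female) in C1q-high cells, above the other leukocytes of 40 or more cells. Itga4 was highest in mature dendritic cells (1282 male, 1031 female) and Itgav in regulatory T cells (648 male, 573 female). Carcinoma cells held Cd44 at 1085 (male) and 1396 (female) and Itgb3 at 127 and 181, but Itgb1, the common beta chain, at only 1.83 (male) and 2.44 (female), against 506 (male) and 517 (female) in C1q-high cells.

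Across cell types, each type of at least 50 cells in a library being 1 point (28 points, keratin-bearing cells included), the genes most like Cxcl9 among 4421 were Asah1 (Pearson r of log2(level + 10) 0.892), Grn (0.856), Hexa (0.839), 5031439G07Rik (0.808) and Creg1 (0.796). Those most like Spp1 were Kctd11 (0.904), Atf4 (0.898), Fosl1 (0.893), Pdpn (0.891) and Jun (0.887). Cxcl9 and Spp1 themselves had r = 0.271. The points share libraries and depth, and the r values are a description with no test. With keratin-bearing cells set apart (26 points), 1 of the 5 genes named for Cxcl9 and 2 of the 5 for Spp1 stayed among the first 5.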

How the data were processed

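The authors deposited 1 matrix of UMI counts for each library, with genes and cells in files of their own; per the submitters' processing notes CASAVA 1.8, UMI-tools and Seurat were used and the build was mm10. The counts were used as deposited: whole numbers, not normalized. Per the labels' protocols, tumours were digested with enzymes, strained and sorted on CD45. Cells were kept from 500 UMIs and 250 genes upward, unless mitochondrial UMIs passed 25%. No doublet caller was run. C1q-high cells that also passed any of the gates named for mixed cells, or carried keratins, were counted instead. Counts were summed over the cells of a type in each library and divided by the type's total (CPM). Poisson intervals on levels, Clopper-Pearson intervals on shares and conditional binomial intervals on ratios, all 95%, cover counting error only. Shares at equal depth are the expected share when each cell is thinned to 1000 or 2000 UMIs, without shallower cells. Classes came from 1 seeded draw of 2000 UMIs a cell, and their gene levels from the full counts. With 1 library in each group no test was made. Against a class without a UMI a ratio used a floor of 3 counts. The members and lists were chosen with earlier results of these data known. Named genes were the 10 at either end by the smaller of the male and female ratios, the 2 list members with the most UMIs and those with the largest and smallest ratio, and the 5 most alike across cell types. Mitochondrial, ribosomal protein, haemoglobin, immunoglobulin, T cell receptor, sex-linked and unnamed genes were left out of that ranking. 1 gene that the rule selects is not reported here. Scripts were checked on simulated counts. Python 3.11.15 was used with numpy 2.4.6, scipy 1.17.1, pandas 2.3.3 and matplotlib 3.10.9.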

Additional observations from a re-analysis of the deposited data

How the results depend on the processing

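The male over female log2 difference of Cxcl9 in C1q-high cells, 1.42 as reported, was 1.46 with C1q at 0.1% or more of UMIs, 1.58 at 1%, 1.36 thinned to 1000 UMIs, 1.37 thinned to 2000 and 1.39 as a mean over cells. That of Spp1, -2.56 as reported, was -2.65 at 1% C1q, -2.37 and -2.40 thinned to 1000 and 2000, and -2.28 as a mean over cells. The log2 difference of the Cxcl9 to Spp1 ratio, 3.98 as reported, was 4.23 at 1% C1q, 3.73 and 3.78 thinned and 3.67 as a mean over cells. All of these settings kept the direction. The co-detection ratio lay on the other side of 1 under some settings. For male cells, 1.1 at full depth, it was 1.27 at 0.1% C1q, 0.909 in cells of at least 2000 UMIs, 0.96 with at least 2 UMIs to be positive, and 0.638, 0.662 and 0.711 thinned to 1000, 2000 and 5000. For female cells, 1.55 at full depth, it was 1.65 at 0.1% C1q, 1.22 in cells of at least 2000 UMIs, and 0.804, 0.842 and 0.966 thinned. The 21 genes past 2-fold in both libraries became 39 with at least 2 UMIs to be positive and 106 with a minimum of 30 UMIs and none on CPM, where more genes were read; the cause of the first was not tested. Counts near 21 did not always hold the same genes: 15 genes passed at 1% C1q (9 on the Spp1-only side, against 18), 17 when thinned to 2000 (11 on that side), 22 at 0.1% C1q and 20 when thinned to 1000, of which 12, 12, 14 and 16 were among the 21. The other values of these 6 results moved by less than their limits. Settings chosen after seeing the data were the rebuilt gates, the 5000 UMI depth, the keratin-free cells and the removal of top cells. No paired analysis was possible because each group is 1 library. Cell names are running numbers, so that shared barcodes could not be counted. Depth limits Cxcl11, Cxcr3, Itga8, Itgb3 and Ccnb1, which had few UMIs in the small male Spp1-only class.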
